A study of Rattus norvegicus with 158 samples.

Results

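The genes described here are the globin and erythroid genes of rat thigh muscle, 7 of the 14217 genes that have a probe set of their own on the array. They are Hbb and Hba-a3, which encode beta and alpha chains of haemoglobin, Alas2, the erythroid form of the first enzyme of haem synthesis, Slc4a1, the anion exchanger band 3 of the red cell membrane, Epb42, which binds band 3 to the membrane skeleton, Slc25a37, a carrier that brings iron into mitochondria, and Bpgm, the enzyme that makes 2,3-bisphosphoglycerate in red cells. The Hbb probe set is of a type whose probes can also match near-identical beta globin copies, so its signal may be shared among them. Each gene was followed through the probe set annotated to it alone, and where a gene had several such probe sets the one with the highest mean over all arrays was used. The rule that picks the probe sets uses no difference between treated and control arrays, though the genes were proposed with earlier results of these data known.

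Muscle fibres do not make haemoglobin in quantity. In muscle RNA, globin and Alas2 transcripts usually come from blood held in the vessels of the tissue, and within blood from reticulocytes, the young red cells that have lost their nucleus but still carry messenger RNA. Alas2 supplies haem while the globin genes supply the chains, and the membrane genes Slc4a1 and Epb42 are made in the same developing cells, whereas Bpgm and Slc25a37 are also used by other tissues.

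Thigh muscle was taken from male Sprague-Dawley (CD-IGS) rats, bought at an age of 6 to 8 weeks and dosed by oral gavage, and polyA RNA was hybridised to Affymetrix rat arrays. Of the arrays, 122 came from rats given 1 of 21 compounds and 36 from rats given a vehicle alone (12 CMC, 18 Water and 6 CMC/SDS/Povidone), with tissue taken at 3 d or 5 d. Each compound was given at 1 dose and had 2 or 3 arrays at each time. Values are log2 expression levels on the deposited scale, so a difference of 1 is a factor of 2, and levels of different genes are not compared with each other.

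With CMC as vehicle the doses in mg/kg were 1000 for Atenolol, 750 for Azaribine, 196 for Buspirone, 269 for Chlorpropamide, 1200 for Famotidine, 126 for Flunarizine, 1500 for Glyburide, 132 for Guanethidine, 1200 for Levosulpiride, 1170 for Pentoxifylline, 300 for Spironolactone and 1000 for Sulpiride. With Water as vehicle they were 47 for Dexchlorpheniramine, 645 for Dicyclomine, 1005 for Etidronate, 2500 for Gabapentin, 1000 for Losartan, 230 for Oxybutynin, 104 for Paroxetine, 572 for Phenytoin and 535 for Trimethadione. No compound had CMC/SDS/Povidone as its vehicle. All CMC compounds were set against the same 12 control arrays and all Water compounds against the same 18, so the comparisons within a vehicle are not independent of each other.

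The muscle fibre markers were high on every array, their mean level lying between 12.30 and 13.91, and array medians over all probe sets lay between 5.69 and 5.89. The labels give 7 days of RNA extraction, here called batches A to G. Batch D held 30 arrays, all from treated rats, and 8 of the 21 compounds shared no batch with controls of their vehicle, so that for these 8 the compound and the batch cannot be told apart in a comparison with those controls. For this reason a second fit over all arrays with the batch as a block was run, and its value, its adjusted p or the fate of the call is given beside the called changes. Batch D held no control, so there the block rests on treated arrays of compounds split between D and other batches. These were Buspirone, Chlorpropamide, Guanethidine, Oxybutynin and Spironolactone. Array titles open with a study code, and controls of the same vehicle and code existed only for Dexchlorpheniramine, Dicyclomine, Sulpiride and Trimethadione. For the other compounds, compound and study cannot be told apart, and the batch block does not change this. The title and the time label disagreed on 1 CMC control array, counted at 3 d.

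The promoters of the globin genes are shown first, as a description of the letters before their starts. Whether these letters bear on the changes below was not tested. RefSeq gives the 150 bases before the start for Hbb, for Hbb-bs (a second adult beta chain gene), for Hba-a3, for Hba-a1 (an adult alpha chain gene) and for Epb42 on build GRCr8. They are written 5′ to 3′ with short motifs usually named in globin promoters in capitals. Capitals mark the CCAAT box, the ATAAA box (part of the globin TATA box), the CACCC box and the GATA motif, each searched on both strands.
Hbb (chr1:167663722-167663871, minus strand): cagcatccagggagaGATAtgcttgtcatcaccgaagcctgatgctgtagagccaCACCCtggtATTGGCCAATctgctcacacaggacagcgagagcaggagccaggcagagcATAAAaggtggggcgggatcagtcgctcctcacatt
Hbb-bs (chr1:167631631-167631780, minus strand): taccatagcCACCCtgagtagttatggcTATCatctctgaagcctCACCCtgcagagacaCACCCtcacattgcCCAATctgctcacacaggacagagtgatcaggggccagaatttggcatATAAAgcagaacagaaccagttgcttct
Hba-a3 (chr10:15816944-15817093, minus strand): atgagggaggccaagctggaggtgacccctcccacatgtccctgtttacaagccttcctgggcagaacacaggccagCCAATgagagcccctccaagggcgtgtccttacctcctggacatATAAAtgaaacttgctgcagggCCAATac
Hba-a1 (chr10:15842581-15842730, minus strand): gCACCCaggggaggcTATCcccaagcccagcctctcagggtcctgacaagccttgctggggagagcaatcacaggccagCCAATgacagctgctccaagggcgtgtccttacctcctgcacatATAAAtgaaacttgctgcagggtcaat
Epb42 (chr3:128451684-128451833, minus strand): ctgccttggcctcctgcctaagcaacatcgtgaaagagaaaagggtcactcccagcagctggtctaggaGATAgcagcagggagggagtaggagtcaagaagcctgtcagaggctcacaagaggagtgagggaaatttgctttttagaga
Of the 33469 promoters in the table, cut to the same window and searched the same way, 23.5% held the CCAAT box, 25.7% the ATAAA box, 35.2% the CACCC box and 38.2% the GATA motif, so each is common by itself. Hbb held 5 matches, among them a CCAAT box on each strand, adjacent and with no base shared. Hba-a3 held 3, a pair of CCAAT boxes and 1 ATAAA box, and Hbb-bs and Hba-a1 also held both kinds. Epb42 held a single GATA motif and none of the others. Bpgm, whose sequence is not shown, held a CCAAT box from 76 to 72 bases before 1 listed start and none of the others. That Bpgm window (chr4:64107127-64107276, plus strand) lies inside the gene span, which begins at 64106809, so it precedes an internal start. The CCAAT box was thus also found before a start of a member with no called change. A match is a description of the letters and not of binding.

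Across the 21 compounds, most differences in Hbb, Hba-a3 and Alas2 between treated muscle and same-vehicle controls were below 0, and no member was called higher in any. A change was called at an adjusted p of 0.01 or less (limma, Benjamini-Hochberg over all 14217 genes) with a fold of 1.5 or more. Of the 147 pairs of a member and a compound, 12 were called lower (8.16%), against 0.949% of all gene and compound pairs, and they fell in 7 compounds. None of the 147 was called higher, against 0.688% of all pairs, with 4 higher at an unadjusted p under 0.05 by limma. With the batch block 4 were called lower, against 0.275% of all pairs, and none higher, with 1 higher at an unadjusted p under 0.05. In these bulk samples fewer cells of a type and less RNA per cell cannot be told apart.

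By gene, Hbb was called lower in 7 compounds, Alas2 in 3 and Hba-a3 in 2, while Slc4a1, Epb42, Slc25a37 and Bpgm were called in none. The treated minus control difference in Hbb was below 0 in 20 of 21 compounds, with a median of -0.78 and a range from -1.89 in Azaribine to 0.12 in Gabapentin. That of Hba-a3 was below 0 in 19, with a median of -0.55, and that of Alas2 in 19, with a median of -0.54. For Slc4a1 the median was -0.14 and for Epb42 -0.04. Slc25a37 had a median of 0.05 and Bpgm -0.03. The plot of levels by array shows the 3 genes that carried the calls.

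**Figure D1:**
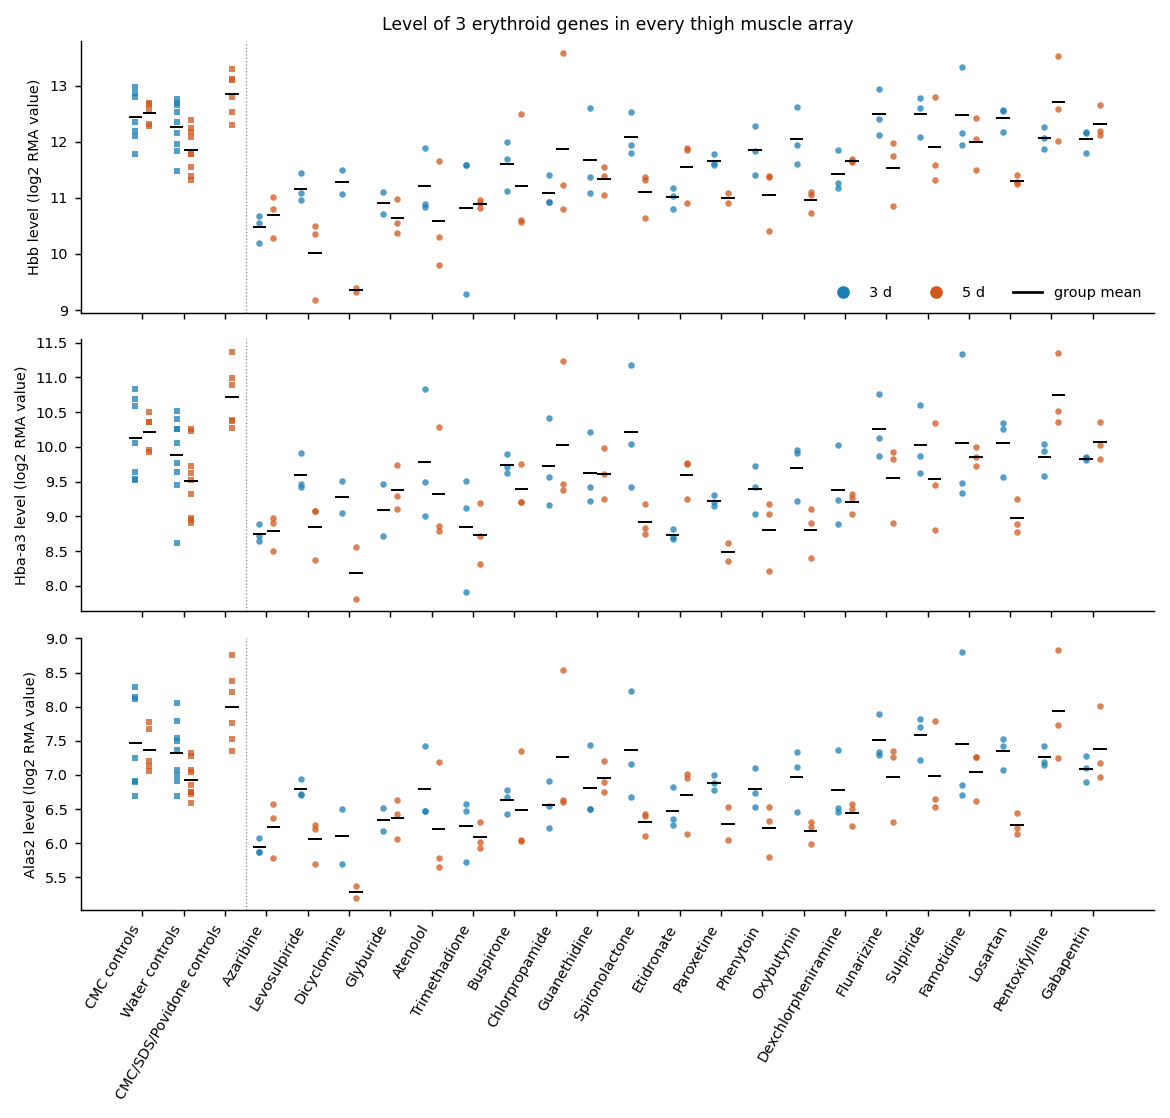
Log2 level of Hbb, Hba-a3 and Alas2 (one panel each, vertical axis) in every array, by vehicle control group and compound (horizontal axis), with 3 d and 5 d arrays in different colours and a bar at the group mean. Hbb lay between 11.32 and 13.29 in the 36 controls, and the arrays under 10 belonged to Dicyclomine, Levosulpiride, Atenolol and Trimethadione.

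The controls set the range. Hbb lay between 11.78 and 12.98 in the 12 CMC controls (median 12.46) and between 11.32 and 12.77 in the 18 Water controls (median 12.13). Hba-a3 lay between 9.52 and 10.84 in CMC controls (median 10.20) and between 8.62 and 10.52 in Water controls (median 9.68). Alas2 lay between 6.70 and 8.29 in CMC controls (median 7.23) and between 6.59 and 8.05 in Water controls (median 7.06). The vehicles overlapped for all 3 genes, and the Water controls reached lower.

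Among all genes, 0% passed an adjusted p of 0.05 by limma when Water was set against CMC controls, 0% when 5 d controls were set against 3 d controls, and 0% when CMC/SDS/Povidone was set against CMC at 5 d, and no member passed in any of the 3. At an unadjusted p under 0.05, 3 of the 7 members differed between Water and CMC (Hbb by -0.39, Hba-a3 by -0.45 and Slc4a1 by -0.15), none between times, and 2 between CMC/SDS/Povidone and CMC (Hba-a3 by 0.49 and Alas2 by 0.63).

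Azaribine, a prodrug of a pyrimidine nucleoside analogue that blocks pyrimidine synthesis, gave the lowest Hbb change. Hbb stood at 10.20, 10.68 and 10.55 at 3 d and at 11.01, 10.28 and 10.81 at 5 d. Every Azaribine array lay below the lowest CMC control. None of these controls had the title code of the Azaribine arrays, so compound and study cannot be told apart. The change was -1.89 (SE 0.163, adjusted p = 1.14e-05, limma, 6 treated and 12 control arrays), and -1.85 with the batch block (adjusted p = 0.000538). Hba-a3 stood at 8.90, 8.64 and 8.72 at 3 d and at 8.90, 8.50 and 8.98 at 5 d. These 6 arrays were also all under the lowest control, and Hba-a3 changed by -1.40 (SE 0.189, adjusted p = 0.00218). The Hba-a3 call was lost with the block (-1.32, adjusted p = 0.0925) and without any 1 of 4 treated arrays (3 d replicates 2 and 3, 5 d replicates 1 and 2), with an adjusted p of up to 0.0145.

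In Azaribine 0.0141% of all genes were called lower, which is 2 genes, and these were Hbb and Hba-a3. At 3 d alone 0.00703% were called lower, a single gene, which was Hbb, at -1.97 (adjusted p = 0.00188; block -2.07, adjusted p = 0.000265). That call was lost when any of the 3 arrays at 3 d was left out, with an adjusted p of up to 0.0264. Alas2 lay below the lowest control in all 6 Azaribine arrays, from 5.79 to 6.57, and changed by -1.34 (SE 0.232), but its adjusted p of 0.0229 missed the threshold. At 3 d alone it changed by -1.53 (adjusted p = 0.362), and in the fit with the block it was called there, at -1.60 (adjusted p = 0.00624). Only 1 Azaribine array and 6 CMC controls shared a batch, and within it Hbb differed by -1.65, a value from a single treated array.

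Dicyclomine, an antimuscarinic drug, had the lowest Alas2 change and a Hbb change that differed between times. Hbb stood at 11.08 and 11.49 at 3 d and at 9.31 and 9.39 at 5 d. Both 5 d arrays lay far below all Water controls, and of the 3 d arrays 1 lay below their lowest and the other within their range. Over both times the change was -1.75 (SE 0.26, adjusted p = 8.59e-05, limma, 4 treated and 18 control arrays), and -1.74 with the block (adjusted p = 9.55e-05). Alas2 stood at 5.70 and 6.50 at 3 d and at 5.37 and 5.20 at 5 d, all under the lowest Water control. Its change was -1.43 (SE 0.194, adjusted p = 3.39e-05), and -1.47 with the block (adjusted p = 0.000305). Hba-a3 changed by -0.96 (adjusted p = 0.0223), which was not called. So 2 members were called lower in Dicyclomine, where 2.76% of all genes were.

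At 5 d alone, Dicyclomine changed Hbb by -2.51 (SE 0.294, adjusted p = 3.05e-06) and Alas2 by -1.65 (SE 0.273, adjusted p = 0.000161), with both calls held under the block (-2.58, adjusted p = 5.02e-07, and -1.70, adjusted p = 0.000678), against 2.53% of all genes called lower. Leaving out 5 d replicate 2 lost the Alas2 call (adjusted p = 0.0111). At 3 d the changes were -0.99 for Hbb (adjusted p = 0.0641) and -1.22 for Alas2 (adjusted p = 0.0171). The change of Hbb at 5 d minus that at 3 d was -1.52 (SE 0.416, adjusted p = 0.0414), and 0.71% of all genes were lower at 5 d in this test. It was the only one of 147 such tests among the members past an adjusted p of 0.05, and it was lost in 11 of 22 fits with 1 array left out, those without any of the 4 treated arrays or without Water controls 1, 4, 5 and 7 at 3 d or 1, 3 and 6 at 5 d, with an adjusted p of up to 0.233. By an ordinary t statistic its adjusted p was 0.0588.

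All 4 Dicyclomine arrays shared a batch with 5 Water controls. Within it Hbb differed by -1.71 (adjusted p = 0.0873) and Alas2 by -1.38 (adjusted p = 0.0805), and at 5 d by -2.41 (adjusted p = 0.0458) and -1.67 (adjusted p = 0.0408). The sizes were close to those against all 18 controls, and none was called.

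Trimethadione, an anticonvulsant, was the other Water compound with a called change over both times. Hbb stood at 11.59, 9.29 and 11.59 at 3 d and at 10.81, 10.96 and 10.90 at 5 d. The 3 d arrays were split, with replicate 2 far below every control and the others inside the control range, while all 5 d arrays lay below it. The change was -1.21 (SE 0.249, adjusted p = 0.00777), and -1.24 with the block (adjusted p = 0.00871). It was lost in 15 of 24 fits with 1 array left out (every treated array but 3 d replicate 1, and Water controls 1, 2, 3, 4, 6 and 9 at 3 d and 1, 3, 6 and 7 at 5 d), with an adjusted p of up to 0.0164.

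Alas2 stood at 6.47, 5.72 and 6.58 at 3 d and at 6.02, 5.93 and 6.31 at 5 d in Trimethadione. All 6 lay below the lowest Water control, 6.59. The change was -0.95 (SE 0.161, adjusted p = 0.00167), and -1.02 with the block (adjusted p = 0.0242). Thus 2 members were called lower where 0.211% of all genes were. At 3 d alone Alas2 was called at -1.07 (adjusted p = 0.00966; 0.394% of all genes), a call lost with the block (-0.99, adjusted p = 0.111) and in 21 of 24 fits with 1 array left out, all but those without Water controls 5 or 8 at 3 d or 4 at 5 d (adjusted p up to 0.187). Within the batches shared with 6 controls, Hbb differed by -0.99 (adjusted p = 0.562) and Alas2 by -0.80 (adjusted p = 0.267), and neither was called. Against the 4 Water controls whose titles open with the same code the differences over both times were -0.80 and -0.72, and the 3 d difference of Alas2 was -0.43 (adjusted p = 0.703). Hbb over both times and Alas2 at 3 d thus moved by more than 1.5 times. Those 4 controls had Hbb levels of 11.48, 11.32, 11.78 and 12.18, with 3 of the 4 under the Water median.

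Etidronate, a bisphosphonate that slows bone resorption, had a called change at 3 d alone. Hbb stood at 10.81, 11.04 and 11.18 at 3 d, all below the lowest Water control, and at 11.89, 10.90 and 11.86 at 5 d, where 1 of the 3 did. The 3 d change was -1.26 (SE 0.263, adjusted p = 0.00296), against 2.01% of all genes called lower, and -1.13 with the block (adjusted p = 0.0206). It was lost without 3 d replicate 1 or 2 (adjusted p up to 0.0312). At 5 d it was -0.31 (adjusted p = 0.613), and the difference between the times, 0.95, was not past the threshold (adjusted p = 0.277).

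The next compounds had most or all of their arrays in batch D. Levosulpiride, a dopamine D2 receptor blocker, had all 6 there. Hbb stood at 11.45, 10.96 and 11.10 at 3 d and at 9.17, 10.50 and 10.36 at 5 d, all below the CMC controls. The change was -1.85 (SE 0.239, adjusted p = 5.78e-05), with 5 d replicate 1 the lowest of all arrays in the series, and -1.29 with the block (adjusted p = 0.257). That array also had a muscle fibre marker mean of 12.74, within the CMC control range of 12.30 to 13.89, and its part in the result was not tested.

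Hba-a3 in Levosulpiride stood at 9.43, 9.46 and 9.91 at 3 d and at 8.37, 9.08 and 9.08 at 5 d, with 5 of 6 below the lowest control. Its change was -0.93 (SE 0.223, adjusted p = 0.00616; block -1.01, adjusted p = 0.391). Alas2 stood at 6.95, 6.73 and 6.71 at 3 d and at 5.70, 6.26 and 6.20 at 5 d, and the 3 d arrays lay inside the control range. It changed by -0.98 (SE 0.235, adjusted p = 0.00599; adjusted p = 0.36 with the block). The Hba-a3 call was lost in 7 and the Alas2 call in 6 of 18 fits with 1 array left out, with adjusted p up to 0.0205 for both. For Hba-a3 these were every Levosulpiride array but 3 d replicate 3, CMC control 5 d replicate 1 and CMC control 3 d replicate 6, and for Alas2 every Levosulpiride array but 3 d replicate 1, and CMC control 5 d replicate 1. In all 3 members were called where 3.54% of genes were. Neither the Hbb call nor these held with the block. At 5 d Hbb changed by -2.50 (adjusted p = 0.000163) and Hba-a3 by -1.38 (adjusted p = 0.0074), and both calls were lost with the block (-1.54, adjusted p = 0.456, and -1.07, adjusted p = 0.627). Among all genes 2.4% were called lower at 5 d. The Hba-a3 call was also lost in 10 of 18 such fits, those without any 5 d CMC control or any Levosulpiride array but 3 d replicate 3, with an adjusted p of 0.0578 at most.

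Levosulpiride is the S-enantiomer of Sulpiride. Sulpiride was given at 1000 mg/kg and Levosulpiride at 1200 mg/kg, and the arrays came from batch A and batch D, so the values are only set side by side. For Sulpiride Hbb stood at 12.79, 12.08 and 12.60 at 3 d and at 11.33, 12.80 and 11.59 at 5 d, against the Levosulpiride levels given above. At 5 d the Sulpiride change was -0.60 (SE 0.304, adjusted p = 0.696).

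Glyburide, a sulfonylurea that closes potassium channels of insulin-secreting cells, had its 5 arrays in batch D. Hbb stood at 11.10 and 10.71 at 3 d and at 10.38, 10.98 and 10.56 at 5 d, all below the CMC controls. The change was -1.72 (SE 0.181, adjusted p = 2.93e-05; block -1.10, adjusted p = 0.512), against 2.86% of all genes called lower. At 5 d it was -1.87 (adjusted p = 0.000565; block -0.91, adjusted p = 0.379), against 1.31% of all genes. Both calls held without any single array, including 5 d replicate 2, whose 3′ minus 5′ Gapdh difference, a sign of RNA breakdown, was the highest of all arrays at 3.02. Alas2 changed by -1.05 (adjusted p = 0.0106) and Hba-a3 by -0.93 (adjusted p = 0.0122), neither called.

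Atenolol, a blocker of beta-1 adrenergic receptors, had Hbb at 11.89, 10.84 and 10.89 at 3 d and at 11.65, 9.80 and 10.31 at 5 d, in batch D throughout. All but 3 d replicate 1 lay below the lowest CMC control. The change was -1.56 (SE 0.251, adjusted p = 0.000531; block -0.99, adjusted p = 0.314), against 2.97% of all genes. At 5 d it was -1.92 (adjusted p = 0.0028; block -0.97, adjusted p = 0.257), against 2.34% of all genes, and the 5 d call was lost without 5 d replicate 2 or 3 (adjusted p up to 0.0302).

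Guanethidine, which stops release of noradrenaline from nerve endings, had 5 of 6 arrays in batch D. Hbb stood at 12.60, 11.08 and 11.37 at 3 d and at 11.56, 11.39 and 11.06 at 5 d. The first array, the one outside batch D, lay within the control range, and the others below it. The change was -0.95 (SE 0.206, adjusted p = 0.00366; block -0.51, adjusted p = 0.615), against 2.52% of all genes, and it was lost without 3 d replicate 2 or 3 or 5 d replicate 3 (adjusted p up to 0.0146). Chlorpropamide also had 5 of 6 arrays in batch D, and its Hbb change of -1.02 was not called (limma, adjusted p = 0.0333; block -0.54, adjusted p = 0.705). Its 5 batch D arrays lay below the lowest CMC control, and its batch E array, at 13.58, above the highest.

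**Figure D2:**
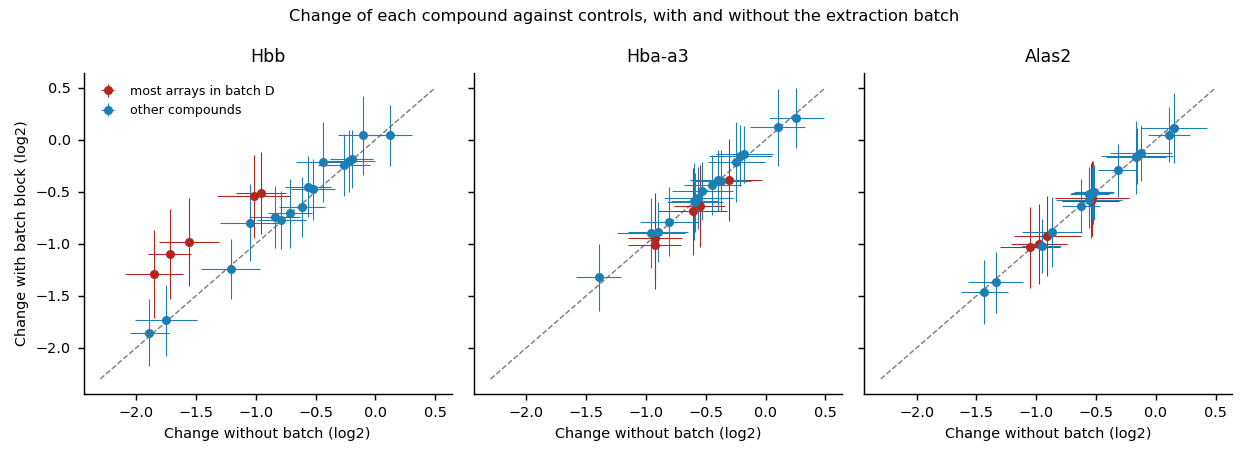
Treated minus control change of each compound (log2) with the batch block (vertical axis) against the change without it (horizontal axis), for Hbb, Hba-a3 and Alas2, with standard errors as bars and red for compounds with most of their arrays in batch D and blue for the others; the dashed line marks equal values. With the block Hbb changes moved from -1.85 to -1.29 in Levosulpiride and from -1.72 to -1.10 in Glyburide, while in Azaribine and Dicyclomine they stayed within 0.05.

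Hbb averaged 11.00 ± 0.65 (SD, n = 30) in batch D, against 12.21 ± 0.58 in batch A (n = 21), 11.39 ± 1.16 in B (n = 26), 11.79 ± 0.61 in C (n = 54) and 12.20 ± 0.86 in E (n = 15). In batch G, which also held no control, Hbb averaged 11.60 (n = 11), and the 1 array of F read 11.62. Hba-a3 averaged 9.51 in batch D, beside 9.91 in A, 9.34 in B, 9.50 in C, 9.92 in E and 9.70 in G (n = 11). For Hbb in Atenolol, Glyburide, Levosulpiride and Guanethidine the batch moves with the compound, and its part in the Hbb result was not tested beyond the block. Gapdh 3′ minus 5′ also differed, with a median of 0.354 in batch D against 0.214 over all arrays.

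Other probe sets carry globin sequence but name several genes, so they were kept apart. The 2 annotated to Hbb-bs and Hbbl1 and the 3 annotated to Hba-a1 and Hba-a2 correlated with Hbb at 0.863 to 0.990 over the 122 treated and 36 control arrays, a description across arrays of shared batches and groups. In a fit over all 31042 probe sets, chosen after seeing the data, each was called lower in 5 to 7 compounds, against 1.27% of all probe set and compound pairs. One of the Hbb-bs and Hbbl1 probe sets read -2.19 in Azaribine and -2.36 in Dicyclomine, but -0.64 in Atenolol and -0.79 in Glyburide (adjusted p = 0.177 and 0.0291, not called). For this probe set batch D had a mean of 11.08, above 10.35 in B and 10.93 in C and below 11.42 in A, 11.69 in E and 11.15 in G. The other 4 had their lowest batch mean in D, at 9.46 for the other Hbb-bs and Hbbl1 probe set and at 12.49, 12.20 and 11.56 for those of Hba-a1 and Hba-a2.

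Slc4a1, Epb42, Slc25a37 and Bpgm gave no called change, at either time or over both. The lowest Slc4a1 change was -0.42 in Guanethidine (SE 0.1, adjusted p = 0.00672), where all 6 arrays, from 5.46 to 5.84, lay below the lowest control, but the fold of 1.34 was under the limit. Over both times Epb42 ranged from -0.16 to 0.02 over compounds, Slc25a37 from -0.13 to 0.27 and Bpgm from -0.30 to 0.22. The 4 pairs higher at an unadjusted p under 0.05 were all Slc25a37. Levels of Epb42 lay between 4.36 and 5.18 over all arrays and those of Slc4a1 between 5.41 and 6.76. Every Epb42 level was under the lowest array median of 5.69, so a fall of Epb42 may be hard to see. Other probe sets of Slc4a1 and Bpgm, in the fit over all probe sets, were called once each, at -0.83 for Slc4a1 in Levosulpiride and -1.05 for Bpgm in Glyburide.

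By time, 3 of 147 pairs of a member and a compound were called lower at 3 d (0.252% of all gene and compound pairs) and 6 at 5 d (0.471%), and none higher at either by limma, with 4 and 2 higher at an unadjusted p under 0.05. With the block 2 pairs were called lower at each time, those at 3 d in Azaribine and those at 5 d in Dicyclomine. At 5 d Gabapentin and Pentoxifylline had higher means than their controls. The Hbb difference was 0.46 in Gabapentin (adjusted p = 0.833), with 2 of 3 arrays inside the 5 d Water control range, and the Alas2 difference 0.56 in Pentoxifylline (adjusted p = 0.83), with 2 of 3 arrays inside the 5 d CMC range, and neither passed the test. Spironolactone, a blocker of the aldosterone receptor, changed Hbb by -0.35 at 3 d and by -1.40 at 5 d (adjusted p = 0.0861). Its 5 d arrays, at 11.37, 11.33 and 10.64, lay below every CMC control, and its difference between times was not past the threshold (adjusted p = 0.982). The map of changes by time gives the pairs.

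**Figure D3:**
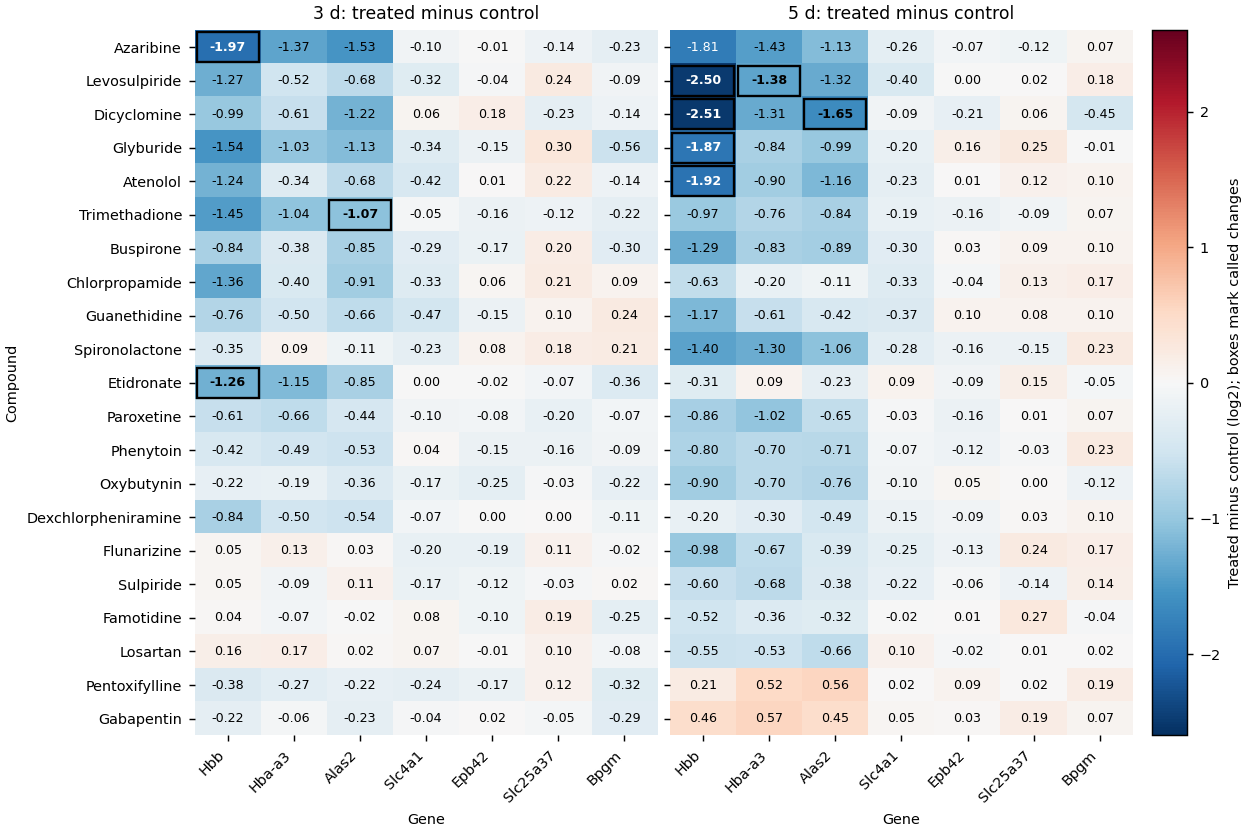
Treated minus control change (log2, colour) of the 7 genes (columns) in 21 compounds (rows), at 3 d on the left and 5 d on the right, with boxes around called changes. The columns of Hbb, Hba-a3 and Alas2 hold the strongest changes, down to -2.51 for Hbb in Dicyclomine at 5 d, and those of Epb42 and Slc25a37 lie between -0.25 and 0.30.

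The genes most like Hbb across all arrays, among 14216 others, were Alas2 (Pearson r = 0.914), Hba-a3 (0.848) and Alox15 (0.773), a lipoxygenase that takes part in the removal of organelles from reticulocytes. The next 7 were Cnn3 (0.604), Cav1 (0.597), Rgs5 (0.597), Clic4 (0.596), Tent5c (0.594), Lamb1 (0.588) and Col4a1 (0.578), and the 5 lowest were Hsf4 (-0.631), Gps2 (-0.618), Gramd1b (-0.597), Uri1 (-0.570) and Zfp771 (-0.554). After subtraction of the 47 group means the values for Alas2, Hba-a3 and Alox15 were 0.852, 0.795 and 0.652, and in the 36 controls alone 0.891, 0.932 and 0.795. These 3 also held the first 3 places in both. Slc4a1 had r = 0.460 over all arrays and 0.645 in controls, and Slc25a37 0.100 and 0.500. A second Slc4a1 probe set, of lower mean level and not used for the gene, had r = 0.700 over all arrays. That of Bpgm had 0.272, against 0.078 for the probe set used. Arrays of a group and a batch share their source, so the values are descriptions.

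**Figure D4:**
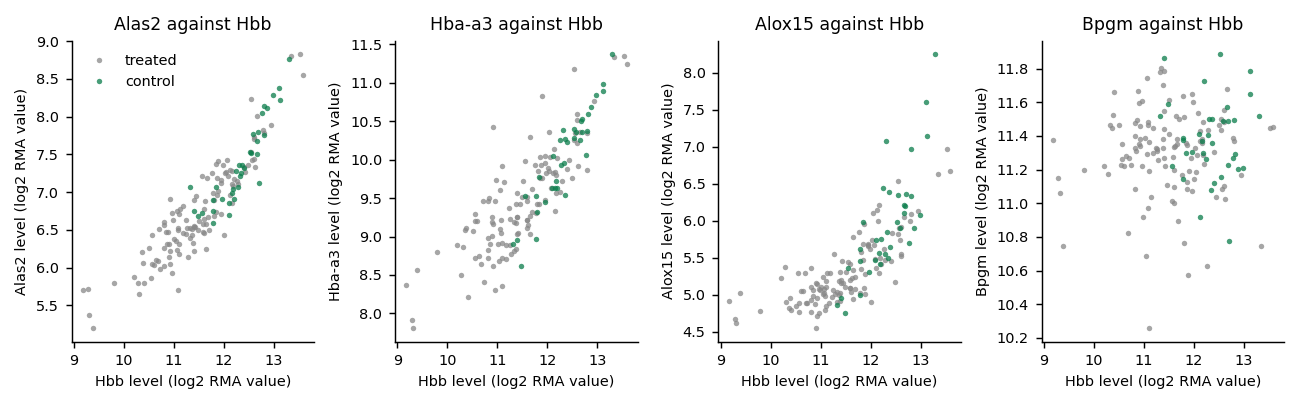
Level of other genes (vertical axes, log2) against the Hbb level (horizontal axis, log2) in every array, for Alas2, Hba-a3, Alox15 and Bpgm in separate panels, treated arrays in grey and controls in green. Alas2 and Hba-a3 rise with Hbb (r = 0.914 and 0.848), and the Bpgm probe set used here shows little relation to it (r = 0.078).

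Alox15, named here for its likeness to Hbb, was called lower in Atenolol (-0.82, SE 0.155, adjusted p = 0.00167), Buspirone (-0.79, SE 0.134, adjusted p = 0.00519, where 0.394% of all genes were), Glyburide (-0.99), Guanethidine (-0.69) and Levosulpiride (-0.89). In Buspirone Hbb ranged from 10.56 to 12.49 over the 6 arrays and was not called. With the block all 5 Alox15 calls were lost, at changes from -0.78 in Glyburide to -0.52 in Guanethidine and adjusted p from 0.351 in Buspirone to 0.492 in Glyburide.

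Of 80 other erythroid genes in 7 lists, 1680 pairs were tested, of which 27 (1.61%) were called lower and 16 (0.952%) higher. Over all gene and compound pairs the shares were 0.949% lower and 0.688% higher. With the block 1 of the 1680 was lower, against 0.275% of all pairs, and 6 were higher. Tfrc, the transferrin receptor that brings iron into cells, was the one lower with the block, in Dicyclomine, at -2.02 (SE 0.251, adjusted p = 1.64e-05; block -1.78, adjusted p = 2.03e-05). The 5 other genes of the globin chain list, Hbe1, Hbe2, Hbg1, Hbz and Ahsp, gave no call in 105 pairs. Hbe1, Hbe2, Hbg1 and Hbz had low mean levels, from 3.96 to 4.82. The probe sets of Hba-a1, Hba-a2, Hbb-bs and Hbbl1 name several genes, so they are not in this count, and their lower calls are given above. The haem synthesis list gave 2 lower and 1 higher in 252 pairs. The iron supply list gave 10 lower in 210 pairs, 7 of them Ireb2, an iron sensor, none of which was called with the block. It also gave 5 higher, all Slc25a28, a mitochondrial iron carrier, again none with the block. The red cell membrane list gave 7 lower in 357 pairs, 5 of them Ank1, the ankyrin that also serves in muscle, none with the block.

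Erythroid transcription factors gave no lower call in 273 pairs and 4 higher, all Foxo3, of which 2 held with the block (Etidronate 0.83 and Losartan 0.78). Gata1, Klf1 and Nfe2, the factors that drive globin genes in red cell precursors, were called in no compound and had mean levels of 4.86, 4.99 and 4.02. The list of red cell metabolism and maturation gave 5 lower and 4 higher in 336 pairs, with 0 and 2 called with the block. That of erythropoietin signalling gave 3 lower and 2 higher in 168 pairs, with 0 and 2 called with the block. Over all gene and compound pairs 0.949% were called lower and 0.688% higher without the block.

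Among markers of other cells, those of dividing cells had the most calls, with 34 of 126 pairs lower (51 with the block). Of their 6 genes, 5 were called lower in Dicyclomine, 5 in Etidronate, 3 in Trimethadione, 2 in Guanethidine, 2 in Levosulpiride, 1 in Atenolol and none in Azaribine or Glyburide. Compounds with no member called also had such calls, 4 in Buspirone, 4 in Phenytoin, 3 in Losartan, 3 in Paroxetine, 1 in Chlorpropamide and 1 in Oxybutynin. Muscle fibre markers were called lower in 1 of 252 pairs, and those of white blood cells in none of 294, with 1 higher. Platelet markers were lower in 2 of 105 pairs (Pf4 in Etidronate and Levosulpiride), endothelium in 2 of 105 (Kdr, at -1.06 in Dicyclomine and -0.85 in Etidronate, both held with the block), fat cells in 1 of 105 (Fabp4 in Levosulpiride) and tendon in 1 of 84 (Fmod, at -2.79 in Levosulpiride). With the block the Pf4, Fabp4 and Fmod calls in Levosulpiride were lost, and that of Pf4 in Etidronate held. Over all gene and compound pairs 0.949% were called lower, and 3.54% of genes in Levosulpiride and 2.76% in Dicyclomine. The platelet, endothelium, fat cell and tendon calls were all in compounds with a globin call, in Etidronate at 3 d alone. Their part in the globin result was not tested. In Dicyclomine the mean of the dividing cell markers lay between 4.20 and 4.51, against 4.93 to 5.98 in Water controls, and their part in the result was not tested either.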

How the data were processed

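Values were deposited by the authors as log2 expression levels, normalised with RMA according to the submitters' processing notes, which name no version or settings. The study's methods name a frozen form of RMA for its own work, and which form made these values is not settled here. RMA sets arrays to a common distribution, so a shift of the whole array is not kept, and the number of arrays limits the precision. The table had no column of another series (0 unused). Of 31099 probe sets, 57 array controls were left out, 20826 named 1 gene, 436 several and 9780 none. The probe set with the highest mean was kept for each of 14217 genes, and 14167 of these matched the current RefSeq gene table by gene identifier.

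In R 4.3.3 with limma 3.58.1, each compound was set against all controls of its vehicle with time as a covariate, then at 3 d and 5 d apart, and the change at 5 d minus that at 3 d was tested at an adjusted p of 0.05. A call needed a fold of 1.5 together with limma's p, adjusted by Benjamini-Hochberg across the 14217 genes, at or under 0.01. A fit over all arrays carried the RNA extraction batch as a block. The test was checked on simulated data.

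Nothing in the labels states that arrays of a group come from separate animals, so p-values measure only the spread between these samples, which may be technical. The 7 members, the 10 genes most and 5 least like Hbb, and 14 gene lists were named, and the arrays of every called pair printed; all were chosen with earlier results of these data known. Replicate numbers follow deposit order.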

Additional observations from a re-analysis of the deposited data

Results flagged for a closer look

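Among 35 combinations of a member and a control group, 2 held a value far from the others, where chance gives about 5% of such flags. Slc4a1 stood at 6.51 in CMC control 5 d replicate 5, beside 6.06 for the nearest of the 5 arrays of that group. Slc25a37 stood at 7.03 in Water control 3 d replicate 6, beside 6.46 for the nearest of 9. Of 147 differences between times, that of Hbb in Dicyclomine was past the test, with a change at 5 d minus the change at 3 d of -1.52, on 2 arrays at each time.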

How the results depend on the processing

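Of the 12 calls over both times, 3 at 3 d and 6 at 5 d, the batch block kept 4, 1 and 2, and called 4, 2 and 2. Within batches shared with controls, possible for 13 of the 21 compounds, 0, 0 and 0 were called by limma, with 27 of 91, 16 of 91 and 21 of 84 pairs lower and 2, 1 and 0 higher at an unadjusted p under 0.05 (Azaribine had 1 treated array there, too few to read its p); no value could be had for the other 8. Of 7 called pairs that could be set against controls with the same title code, none was called. At 3 d the hybridization period as a block called 5, the genes above the median level 5 and the ordinary t statistic 1. With 1 array left out the counts lay between 10 and 14, 2 and 5, and 5 and 7, the 5 at 3 d without Water control 3 d replicate 8. None of the 21 called pairs changed sign under any of these settings; the ordinary t statistic lost 7 of them, the batch block 14, the hybridization period 6 and centring on array medians 1. The correlation of Bpgm with Hbb turned from 0.08 to -0.13 within groups and -0.018 in controls, that of Slc25a37 was 0.100 and 0.500 in controls, and that of Epb42 from 0.06 to -0.012 within groups. The causes were not tested. No paired analysis was possible because replicate numbers follow deposit order and tie no treated array to a control. Some of these settings, the fit over all probe sets and those of the time difference, were chosen after seeing the data. Groups of 2 or 3 arrays limit what a single time can show.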

Other observations

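The 6 CMC/SDS/Povidone controls, which served no compound, had the highest control levels of the reticulocyte genes. Hbb lay between 12.31 and 13.29 (median 12.95), Hba-a3 between 10.28 and 11.37, and Alas2 between 7.36 and 8.76. Alox15 lay between 6.34 and 8.25, against 5.46 to 6.37 in all 12 CMC controls. At 5 d the Alox15 difference from CMC was 1.28 (SE 0.281, limma, adjusted p = 0.751), with 0 genes past an adjusted p of 0.05. Vehicle and study cannot be told apart here.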
